A study of Homo sapiens with 12 samples.

Results

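The genes described here are 10 members of the response to amino acid shortage and to unfolded protein in the endoplasmic reticulum (ER): ATF4, DDIT3, DDIT4, TRIB3, ASNS, CHAC1, SESN2, HSPA5, XBP1 and HERPUD1. They are every row of the deposited array table that carries 1 of these gene symbols, and the symbols were picked with earlier results of these data known, so the counts of members called are not free of that choice. All 10 were on the array, among 34599 named genes, with 15 of its 47228 gene probes. Probes detected on at least 2 arrays were tested, which kept 13 of the 15 probes and 8 of the 10 genes.

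RNA was measured in 2 human pancreatic ductal adenocarcinoma lines, MIA PaCa-2 and Capan-1, in which FAK (focal adhesion kinase), the tyrosine kinase and scaffold encoded by PTK2, had been knocked down. Each line carried a doxycycline-inducible short hairpin RNA (shRNA) in the PLKO.1 tet-on backbone: a scrambled hairpin (shCtrl) or 1 of 2 hairpins against FAK, sh1209 and sh1319. All 6 groups, shCtrl included, were puromycin-resistant cultures (kept in 3.5 µg/ml for MIA PaCa-2 and 1.5 µg/ml for Capan-1) and the protocol gives 50 ng/ml doxycycline for 96 hours, so the vector, the drug selection and the inducer are shared by knockdown and control. Each group had 2 arrays, 12 in all, and nothing in the labels says that the 2 came from separate cultures, so the p-values measure the spread between these arrays, which may be technical. Cells without doxycycline were not analysed here, and both FAK hairpins of a line are compared with the same 2 shCtrl arrays. The puromycin dose differed between the lines, so line and dose cannot be told apart in any comparison between them.

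Shortage of amino acids and unfolded protein in the ER are sensed by separate kinases that phosphorylate the translation factor eIF2, which slows protein synthesis while translation of the ATF4 mRNA rises. ATF4 protein then switches on genes for amino acid synthesis and uptake, together with DDIT3, TRIB3 and other regulators of growth and survival. In parallel, the ER sensors IRE1 and ATF6 act through spliced XBP1 and cleaved ATF6 to raise chaperones such as HSPA5 and parts of ER-associated degradation such as HERPUD1. Secretory epithelia such as the pancreas depend on this second arm, and mRNA levels as measured here do not show the translation of ATF4 or the splicing of XBP1.

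Values are given as normalized log2 intensity, so that a difference of 1 is a doubling, and a change "passed the test" when limma's adjusted p was under 0.05 over 24207 tested probes. PTK2, read by probe 450253, fell in each of the 4 comparisons with shCtrl: to 21.1% and 17.9% of the control level with sh1209 and sh1319 in MIA PaCa-2, and to 65.4% and 29.2% in Capan-1. Its second probe, 2680750, lay near the background, with group means of 4.76 to 5.97. It changed by 0.31 and -0.29 in MIA PaCa-2 and by -0.46 and -0.46 in Capan-1, and passed in none of the 4. On probe 450253 the knock down with sh1209 in Capan-1 was thus the weakest, and it lost its call under median scaling in place of quantile normalization (log2 change -0.46, adjusted p 0.149). Of the epithelial markers, CDH1, EPCAM, KRT8, KRT18 and KRT19 were detected on 6 of 6 Capan-1 arrays, and KRT8 and KRT18 also on 6 of 6 of MIA PaCa-2, where CDH1 was on 0. Of the mesenchymal markers, VIM read 13.08 to 13.35 in MIA PaCa-2 and 5.60 to 6.15 in Capan-1, CDH2 was on 0 of 6 and 6 of 6 arrays, and ZEB1 was on 0 of 12. Among 3 fibroblast and 3 leukocyte markers, PDGFRB and CD3D were on 0 of 12 arrays, DCN and LUM on 1 and 2 of Capan-1, PTPRC on 1 of MIA PaCa-2, and CD14 on 5 of MIA PaCa-2 and 1 of Capan-1, none of the 6 reading above 5.24. Their part in the results was not tested. In bulk RNA, fewer cells of a kind and less RNA per cell cannot be told apart. Median raw intensity ran from 87.7 to 97.0 between arrays.

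The promoters of 5 of the 10 genes hold a match to at least 1 of 3 searched motifs through which the response is known to act. The 4 of them with a tested probe are printed here. The windows are RefSeq sequence of GRCh38.p14 from 250 bases before to 50 after each annotated start, and 16 windows covered all 10 members. On both strands, the core of the C/EBP-ATF response element (CARE, TGATGNAA), bound by ATF4 with a C/EBP partner, was present in 3.62% of 35116 windows and in those of ASNS, CHAC1 and HERPUD1. The ER stress response element (ERSE, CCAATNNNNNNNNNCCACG), through which ATF6 and XBP1 act, was in 0.0769% of windows, those of HSPA5 and XBP1 among them. ERSE-II (ATTGGNCCACG), searched after the data had been seen, was in 0.0541%, with HERPUD1 among them. No matches overlapped within a window. The 200 bases before the start follow, read 5′ to 3′ on the gene's strand, with the matches in capitals: ASNS (chr7:97872409-97872608, minus strand) with CARE at -68 to -61; HSPA5 (chr9:125241344-125241543, minus strand) with ERSE at -66 to -48; XBP1 (chr22:28800570-28800769, minus strand) with ERSE at -52 to -34; and HERPUD1 (chr16:56931942-56932141, plus strand) with CARE on the opposite strand at -176 to -169 and ERSE-II at -117 to -107.
ASNS: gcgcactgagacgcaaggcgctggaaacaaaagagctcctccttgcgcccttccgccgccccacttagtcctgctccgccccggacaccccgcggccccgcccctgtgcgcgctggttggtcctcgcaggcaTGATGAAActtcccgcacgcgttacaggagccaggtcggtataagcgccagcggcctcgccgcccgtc
HSPA5: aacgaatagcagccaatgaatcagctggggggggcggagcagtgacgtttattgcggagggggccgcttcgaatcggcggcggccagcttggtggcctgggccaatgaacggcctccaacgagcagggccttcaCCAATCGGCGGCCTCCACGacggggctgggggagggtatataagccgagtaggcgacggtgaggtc
XBP1: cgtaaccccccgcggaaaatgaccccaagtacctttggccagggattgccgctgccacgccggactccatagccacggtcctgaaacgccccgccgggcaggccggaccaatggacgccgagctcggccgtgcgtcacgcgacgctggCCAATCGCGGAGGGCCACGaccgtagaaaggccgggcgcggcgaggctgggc
HERPUD1: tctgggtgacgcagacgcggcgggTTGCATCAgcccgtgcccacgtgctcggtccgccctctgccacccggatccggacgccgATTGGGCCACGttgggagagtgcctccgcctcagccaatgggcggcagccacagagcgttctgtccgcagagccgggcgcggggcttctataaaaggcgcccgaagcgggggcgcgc
CHAC1 had its CARE match farther out, at -209 to -202. ATF4, DDIT3, DDIT4, TRIB3 and SESN2 had no match in their windows, which says only that these letters are not in this stretch. Of the ER chaperones and foldases listed below, 5 of the 14 with a window held ERSE (CALR, CANX, CRELD2, HSP90B1 and PDIA6) and HYOU1 and SDF2L1 held ERSE-II. A match is a description of the sequence and was not measured here as binding.

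**Figure D1:**
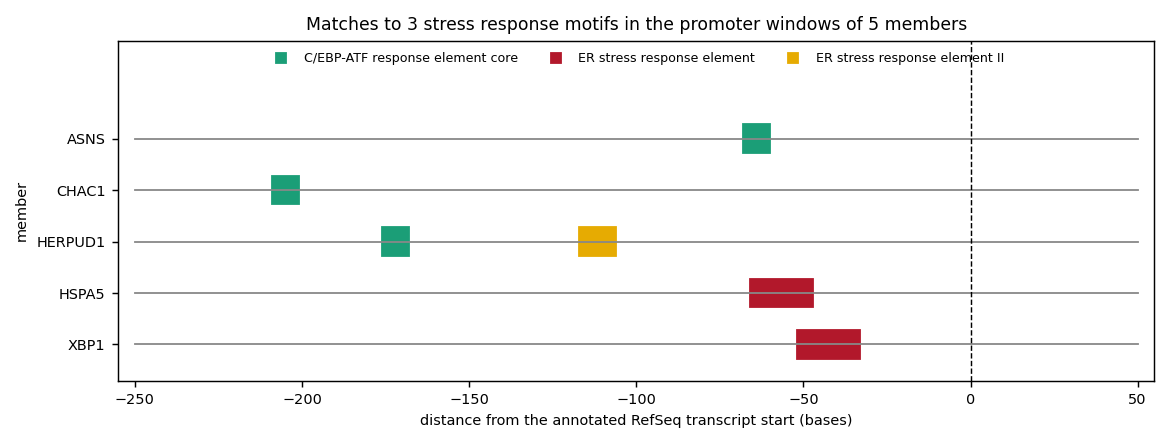
Positions of the matches to 3 motifs in the promoter windows of 5 members, as distance in bases from the annotated transcript start (dashed line); each grey line is 1 window and each box 1 match. The ERSE matches of HSPA5 and XBP1 lie within 66 bases of the start, and HERPUD1 alone holds matches to CARE and to ERSE-II.

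ATF4 itself, the transcription factor of the first arm, fell with both hairpins in MIA PaCa-2 and passed the test with neither in Capan-1. Probe 3460309 read 12.04 and 12.02 on the MIA PaCa-2 shCtrl arrays, 11.18 and 11.11 with sh1209, and 11.11 and 11.14 with sh1319. In Capan-1 it read 11.79 and 11.84 with shCtrl, 11.80 and 11.87 with sh1209, and 12.01 and 12.05 with sh1319. The 4 FAK hairpin arrays of MIA PaCa-2 were the lowest of the 12, whereas in Capan-1 the shCtrl and sh1209 arrays overlapped and those of sh1319 lay just above them. The MIA PaCa-2 levels were 1.85-fold lower with sh1209 (log2 change -0.89 ± 0.10, SE, adjusted p 0.000136) and 1.88-fold lower with sh1319 (-0.91 ± 0.10, adjusted p 6.57e-05). The Capan-1 changes were 0.03 (adjusted p 0.928) and 0.22 (adjusted p 0.22, 95% interval -0.01 to 0.45), the latter of which passed when no background was subtracted (0.21, adjusted p 0.0277).

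The second ATF4 probe, 7610187, moved in the same comparisons. It read 8.40 and 8.42 with shCtrl in MIA PaCa-2, 7.30 and 7.54 with sh1209, and 7.26 and 7.03 with sh1319, so that all knockdown arrays lay below both controls. The changes were -0.99 (adjusted p 0.000285) and -1.26 (adjusted p 2.81e-05), a fall of 1.99-fold and 2.40-fold. In Capan-1 it read 7.83 and 7.78 with shCtrl, 7.61 and 7.54 with sh1209, and 7.79 and 7.96 with sh1319, with changes of -0.23 and 0.07 that did not pass. The third probe, 6480053, stayed between 4.65 and 5.96 on all 12 arrays, close to the lowest detected level of 4.55 to 4.74 per array, and passed in none of these 4 comparisons (changes -0.39 to 0.04). Where each probe lies in the ATF4 transcripts is not given in the sources used here.

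TRIB3, a pseudokinase induced by ATF4 and DDIT3 that restrains AKT and ATF4, had the largest difference between the lines in its response to the hairpins among the members, by the interaction test given further on. It read 9.65 and 9.79 with shCtrl in MIA PaCa-2, 8.49 and 8.54 with sh1209, and 8.70 and 8.67 with sh1319. The Capan-1 arrays read 8.59 and 8.54 with shCtrl, 8.41 and 8.54 with sh1209, and 9.20 and 9.18 with sh1319. Both hairpins brought MIA PaCa-2 down to about the level of the Capan-1 controls, and sh1319 moved Capan-1 the other way. TRIB3 fell 2.30-fold (-1.20 ± 0.11, SE, adjusted p 1.87e-05) and 2.04-fold (-1.03 ± 0.11, adjusted p 3.86e-05) in MIA PaCa-2, did not pass with sh1209 in Capan-1 (-0.09, adjusted p 0.701), and rose 1.54-fold with sh1319 there (0.63 ± 0.11, adjusted p 0.00321).

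DDIT3, which encodes CHOP, the transcription factor that links unresolved ER stress to cell death, fell in 2 of the 4 comparisons. It read 7.33 and 7.60 with shCtrl in MIA PaCa-2, 7.02 and 7.05 with sh1209, and 6.63 and 6.98 with sh1319, so all 4 knockdown arrays lay below the controls. In Capan-1 the shCtrl arrays read 6.28 and 6.37, those of sh1209 5.67 and 5.82, and those of sh1319 6.30 and 6.43, which overlapped the controls. The fall passed with sh1319 in MIA PaCa-2 (-0.66 ± 0.15, SE, adjusted p 0.00592) and with sh1209 in Capan-1 (-0.58 ± 0.15, adjusted p 0.0182), and missed the threshold with sh1209 in MIA PaCa-2 (-0.43, adjusted p 0.0624, but 0.0113 without background correction and 0.0405 with the stricter filter). Neither call held under median scaling (-0.53 and -0.35, adjusted p 0.111 and 0.37). The MIA PaCa-2 call was lost without sh1319 replicate 1 or shCtrl replicate 2 (range over left-out arrays -0.83 to -0.48) and the Capan-1 call without any 1 of its 4 arrays (-0.66 to -0.50).

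ASNS, asparagine synthetase and a standard ATF4 target with the CARE match printed above, fell with both hairpins in MIA PaCa-2 on its brighter probe. The part of ATF4 in this was not tested. Probe 1510296 read 11.50 and 11.49 with shCtrl, 10.85 and 10.73 with sh1209, and 10.92 and 10.81 with sh1319. In Capan-1 it read 9.86 and 9.96 with shCtrl, 9.87 and 9.90 with sh1209, and 10.31 and 10.21 with sh1319. The MIA PaCa-2 knockdown arrays lay between the MIA PaCa-2 and the Capan-1 controls, and the Capan-1 sh1319 arrays lay above the other 4 of that line. The falls in MIA PaCa-2 were 1.63-fold (-0.70 ± 0.11, SE, adjusted p 0.00105) and 1.55-fold (-0.63 ± 0.11, adjusted p 0.00142), and the Capan-1 changes were -0.02 (adjusted p 0.933) and 0.36 (adjusted p 0.0557). The last passed without background correction (0.33, adjusted p 0.00202), without the filter and with the stricter one. Its second probe, 5960181, read 10.00 and 9.84 with shCtrl in MIA PaCa-2 against 9.18 and 8.96 with sh1209 and 9.49 and 9.44 with sh1319. On that probe the sh1209 fall passed (-0.85, adjusted p 0.0156) and the sh1319 change did not (-0.45, adjusted p 0.153). The sh1209 call was lost without MIA PaCa-2 shCtrl replicate 1 or sh1209 replicate 2 (range -0.96 to -0.74). In Capan-1 its control arrays read 7.98 and 8.64 and its sh1209 arrays 7.82 and 8.33, a spread that left the changes of -0.24 and 0.29 (adjusted p 0.555 and 0.45) short of the threshold.

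DDIT4, which encodes REDD1, an inhibitor of the growth kinase complex mTORC1 that also answers to hypoxia and glucocorticoids, moved with 1 hairpin in 1 line. It read 9.83 and 10.01 with shCtrl in MIA PaCa-2, 8.39 and 8.27 with sh1209, and 10.28 and 10.08 with sh1319. All 6 Capan-1 arrays lay between 6.76 and 6.97, and the shCtrl arrays overlapped those of both hairpins. DDIT4 fell 3.01-fold with sh1209 in MIA PaCa-2 (-1.59 ± 0.12, SE, adjusted p 5.39e-06), the largest fall of any member probe. The other 3 changes, 0.26 (adjusted p 0.173), -0.05 (adjusted p 0.865) and 0.08 (adjusted p 0.784), did not pass, except the first without background correction (0.24, adjusted p 0.028). The 2 hairpins differed by 1.85 in MIA PaCa-2 (3.60-fold, adjusted p 1.2e-06).

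CHAC1, which breaks down glutathione, and SESN2, a leucine sensor upstream of mTORC1, are also known ATF4 targets, and neither was above background on any array. CHAC1 read 4.23 to 4.51 and SESN2 4.21 to 4.56 over the 12 arrays, with detection p-values of 0.127 to 0.779 and 0.0662 to 0.853. No change is given for them.

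**Figure D2:**
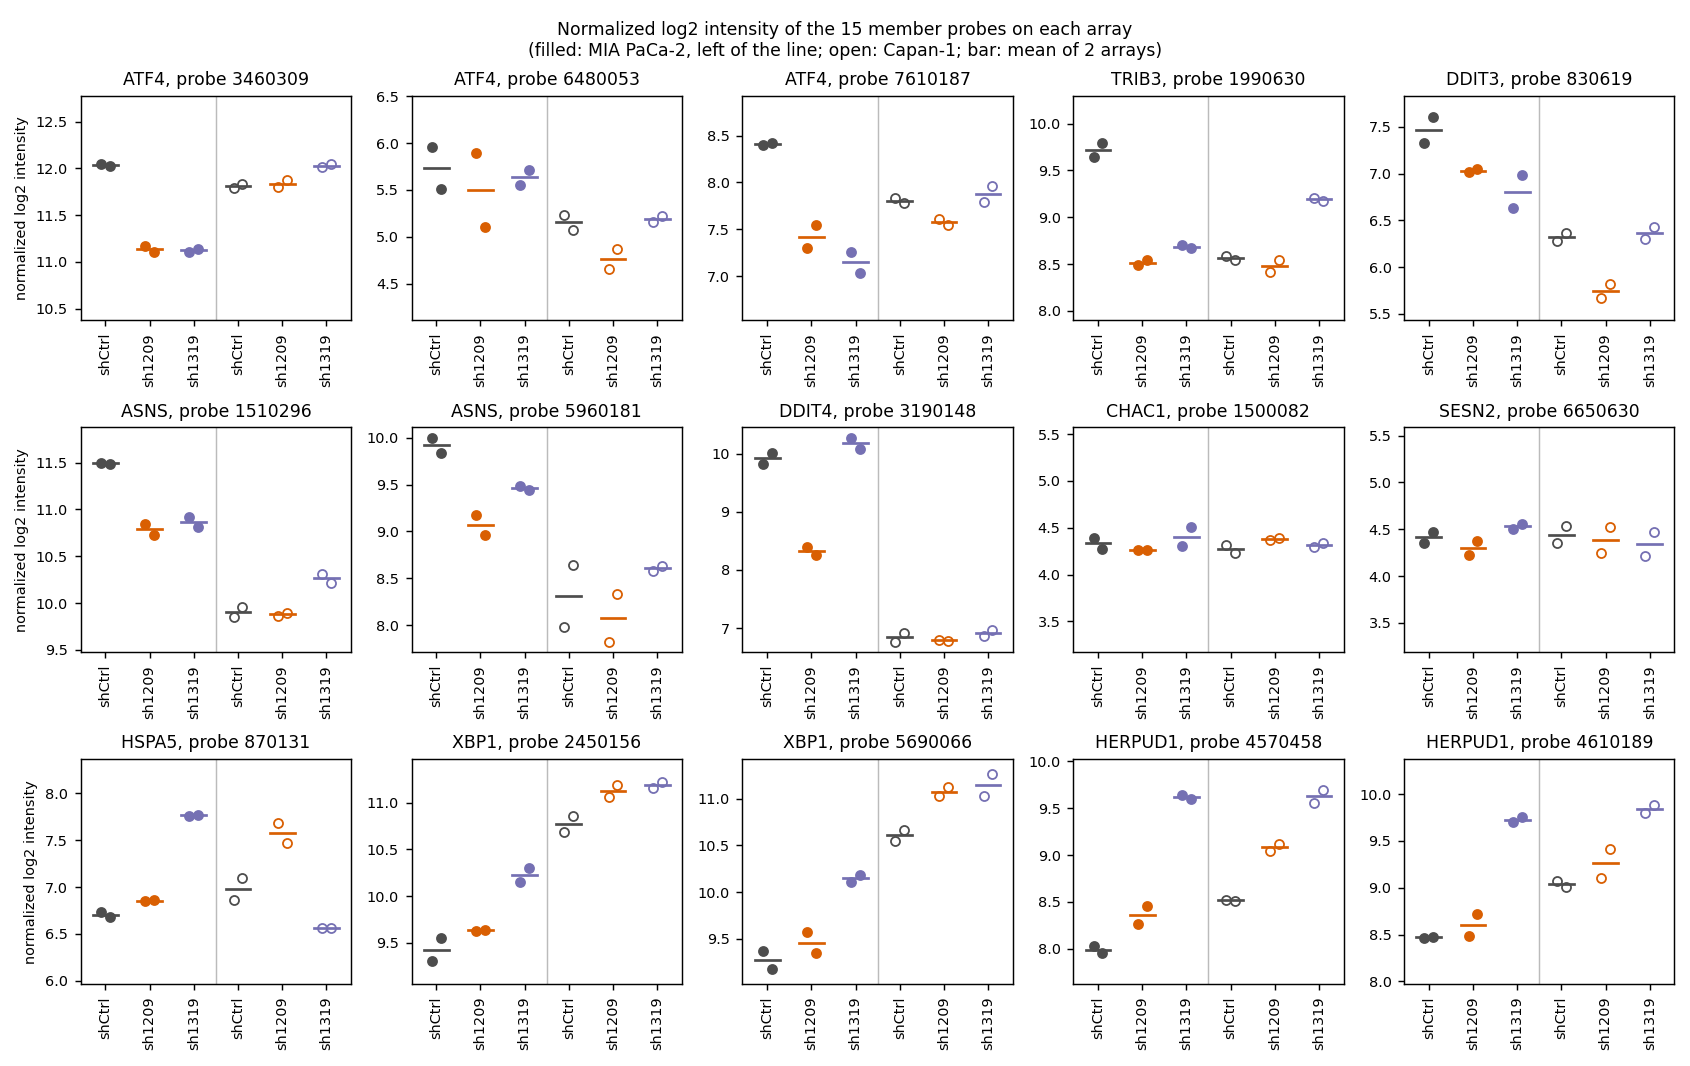
Normalized log2 intensity (vertical axis, scaled to each panel) of all 15 member probes on each of the 12 arrays, by hairpin, with MIA PaCa-2 filled and Capan-1 open; the bar is the mean of 2 arrays. The bright ATF4 probes, TRIB3 and ASNS lie below the controls with both hairpins in MIA PaCa-2, HERPUD1 lies above them with sh1319 in both lines, HSPA5 is lowest with sh1319 in Capan-1, and CHAC1 and SESN2 stay between 4.21 and 4.56.

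In the second arm, HSPA5, the ER chaperone BiP that binds unfolded protein and holds the sensors inactive, moved in opposite directions with sh1319 in the 2 lines. It read 6.73 and 6.68 with shCtrl in MIA PaCa-2, 6.85 and 6.86 with sh1209, and 7.76 and 7.77 with sh1319. The Capan-1 values were 6.86 and 7.10 with shCtrl, 7.69 and 7.47 with sh1209, and 6.56 and 6.57 with sh1319. The highest arrays of each line were thus those of sh1319 in MIA PaCa-2 and of sh1209 in Capan-1, and the sh1319 arrays of Capan-1 were the lowest of all 12. HSPA5 rose 2.09-fold with sh1319 in MIA PaCa-2 (1.06 ± 0.12, SE, adjusted p 6.76e-05) and 1.51-fold with sh1209 in Capan-1 (0.60 ± 0.12, adjusted p 0.00625), and fell 1.34-fold with sh1319 in Capan-1 (-0.42 ± 0.12, adjusted p 0.0428). With sh1209 in MIA PaCa-2 the change was 0.15 (adjusted p 0.465). The fall in Capan-1 did not hold under median scaling (-0.16, adjusted p 0.71), in a fit of that line alone (adjusted p 0.0757), or without any of 9 arrays, 6 of them from MIA PaCa-2 (-0.54 to -0.30). The Capan-1 rise was lost without shCtrl replicate 1 or sh1209 replicate 1 (0.48 to 0.72).

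XBP1, whose mRNA is spliced by IRE1 into the message for a transcription factor of chaperone and secretory genes, rose with sh1319 in both lines. Probe 2450156 read 9.31 and 9.55 with shCtrl in MIA PaCa-2, 9.63 and 9.64 with sh1209, and 10.15 and 10.30 with sh1319. In Capan-1 it read 10.69 and 10.85, then 11.06 and 11.19, then 11.16 and 11.22 in the same order of hairpins. On this probe every knockdown array lay above both controls of its line, and the sh1319 arrays stood apart from those of sh1209 in MIA PaCa-2 and overlapped them in Capan-1. Probe 5690066 read 9.37 and 9.17 with shCtrl in MIA PaCa-2, 9.57 and 9.35 with sh1209, and 10.11 and 10.18 with sh1319, so that sh1209 overlapped the controls there. Its Capan-1 arrays read 10.55 and 10.66, then 11.02 and 11.13, then 11.02 and 11.26, with every knockdown array above both controls. The changes were 0.80 ± 0.13 (SE) with sh1319 in MIA PaCa-2 (1.74-fold, adjusted p 0.000665), 0.42 with sh1319 in Capan-1 (adjusted p 0.0485), and 0.21 and 0.35 with sh1209 (adjusted p 0.315 and 0.0805). On probe 5690066 they were 0.88 (adjusted p 0.000513), 0.54 (adjusted p 0.0207), 0.19 (adjusted p 0.385) and 0.47 (adjusted p 0.0331), so only this probe passed with sh1209 in Capan-1, though the first did so without background correction (0.34, adjusted p 0.00469). None of the Capan-1 calls held under median scaling (0.46 on the first probe, 0.52 and 0.60 on the other). Over left-out arrays they ran from 0.33 to 0.50 on the first probe, lost without 10 of the 12. On the other they ran from 0.41 to 0.52 with sh1209, lost without any of its 4 arrays, and from 0.41 to 0.66 with sh1319, lost without either shCtrl array or sh1319 replicate 2.

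HERPUD1, an ER membrane protein that brings substrates and the ubiquitin ligase together in ER-associated degradation, had the largest rises of the members. Probe 4570458 read 8.03 and 7.95 with shCtrl in MIA PaCa-2, 8.26 and 8.45 with sh1209, and 9.64 and 9.60 with sh1319. Capan-1 arrays read 8.52 and 8.51 with shCtrl, 9.05 and 9.12 with sh1209, and 9.56 and 9.70 with sh1319. No groups of a line overlapped, and the order was shCtrl, sh1209, sh1319 in both. The rises with sh1319 were 3.09-fold in MIA PaCa-2 (1.63 ± 0.12, SE, adjusted p 1.42e-06) and 2.16-fold in Capan-1 (1.11 ± 0.12, adjusted p 0.000125). With sh1209 they were 1.29-fold (0.37, adjusted p 0.0482) and 1.48-fold (0.57, adjusted p 0.00608). The first of these was lost without any 1 of the 12 arrays (0.27 to 0.46) and under median scaling (0.43, adjusted p 0.223).

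The other HERPUD1 probe, 4610189, read 8.46 and 8.48 with shCtrl in MIA PaCa-2, 8.49 and 8.72 with sh1209, and 9.70 and 9.75 with sh1319. In Capan-1 its arrays read 9.07 and 9.01, 9.11 and 9.41, and 9.80 and 9.88 in the same order. The rise with sh1319 passed in both lines (1.25, adjusted p 3.4e-05, and 0.80, adjusted p 0.00227), while the sh1209 changes of 0.13 and 0.22 did not (adjusted p 0.557 and 0.338). The 2 probes therefore gave different calls for sh1209 and the same calls for sh1319.

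**Figure D3:**
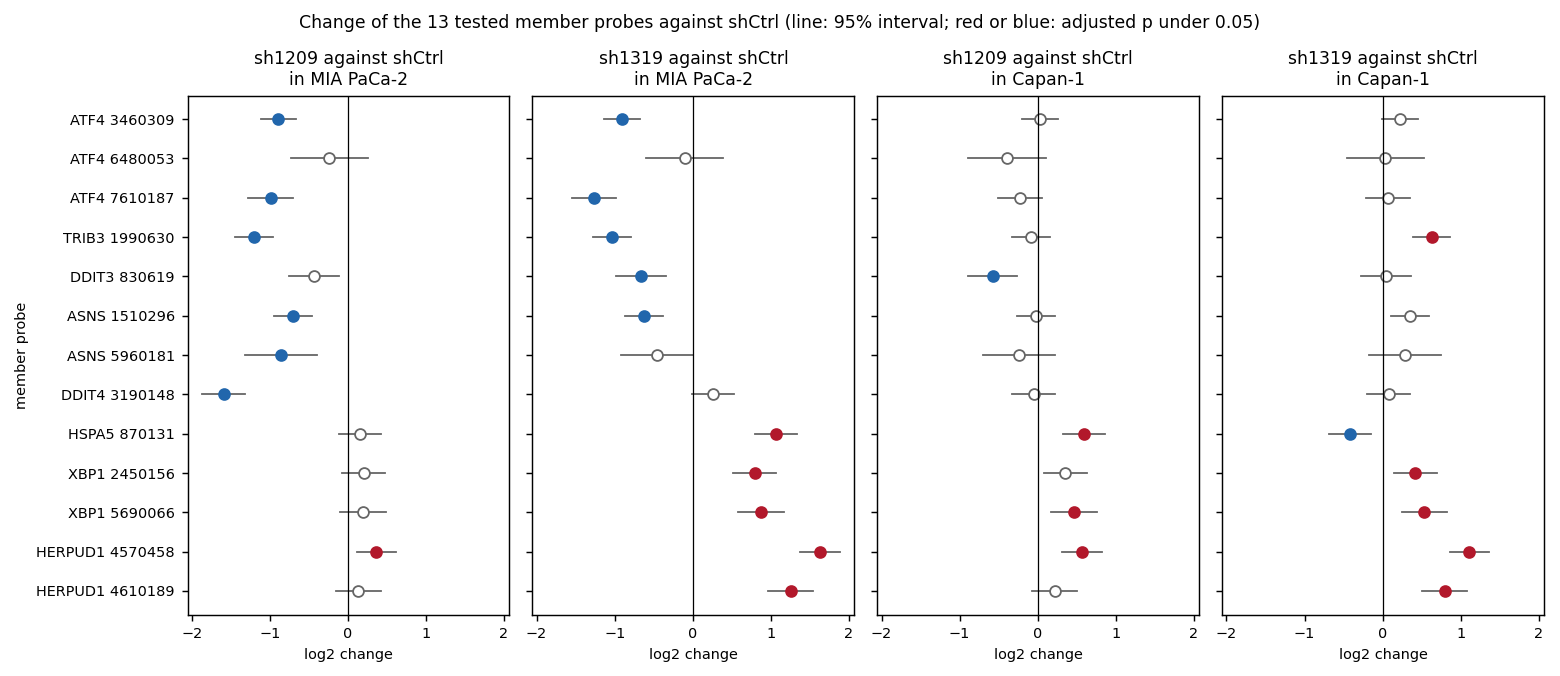
Log2 change against shCtrl of the 13 tested member probes in the 4 comparisons, with 95% intervals; red marks a rise and blue a fall with an adjusted p under 0.05, and open points did not pass. In MIA PaCa-2 the ATF4, TRIB3 and ASNS points lie left of 0 and the HSPA5, XBP1 and HERPUD1 points right of it, and in Capan-1 the points of the first 3 genes lie between -0.39 and 0.36 except for the TRIB3 rise of 0.63.

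Counted over the 13 tested probes, sh1209 in MIA PaCa-2 raised 1 and lowered 6, against 9.05% and 8.99% of all tested probes called in each direction. With sh1319 in MIA PaCa-2, 5 rose and 5 fell, where 12.2% and 12.1% of all probes did. In Capan-1, sh1209 raised 3 and lowered 1 (background 8.14% and 8.69%), and sh1319 raised 5 and lowered 1 (6.95% and 6.77%). The 6 probes lowered by sh1209 in MIA PaCa-2 were the 2 bright ATF4 probes, both ASNS probes, TRIB3 and DDIT4. The 5 raised by sh1319 were the same probes in both lines for XBP1 and HERPUD1, joined by HSPA5 in MIA PaCa-2 and by TRIB3 in Capan-1.

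Averaged over both hairpins and both lines (the combined knockdown), 5 of the 13 probes rose and 6 fell, where 12.5% and 12.7% of all tested probes did. HERPUD1 (0.92 and 0.60), XBP1 (0.44 and 0.52) and HSPA5 (0.35) rose, and ATF4 (-0.39 and -0.60), TRIB3 (-0.42), DDIT3 (-0.41), DDIT4 (-0.33) and ASNS on its brighter probe (-0.25) fell. The call of ASNS was lost without either MIA PaCa-2 shCtrl array or Capan-1 shCtrl replicate 2 (-0.28 to -0.22). Of these calls 7 held under median scaling, 5 rises and the 2 ATF4 falls, and the fall of TRIB3 ended at an adjusted p of 0.0541. The calls rest on the spread between arrays of a group. None held in limma when replicates were averaged and disagreement between the lines served as error (adjusted p 0.42 for HERPUD1 probe 4570458, 0.745 for TRIB3). Over all probes the share of calls that were higher was 49.6% with quantile normalization and 75.8% with median scaling, so the split of rises and falls depends on the scaling while the all-probe median moved by 0.06. The same share went from 50.3% to 65.5% with sh1319 in MIA PaCa-2, where the member counts became 5 and 4, and from 48.4% to 78.6% and 50.6% to 82.7% with sh1209 and sh1319 in Capan-1, where they became 2 and 0, and 3 and 0.

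The 2 hairpins were also set directly against each other. PTK2 probe 450253 was itself lower with sh1319 in Capan-1 (-1.16, adjusted p 6.21e-05) and did not pass in MIA PaCa-2 (-0.24, adjusted p 0.173). Its dim probe 2680750 passed in MIA PaCa-2 alone (-0.59, adjusted p 0.021). The choice of hairpin and the depth of knock down therefore cannot be told apart in these comparisons. In MIA PaCa-2, 6 of the 13 probes differed, all higher with sh1319, where 22.6% of all tested probes differed in either direction (49.4% of those higher, and 63.6% under median scaling, which left the member counts at 6 and 0). They were DDIT4 (1.85), HERPUD1 (1.26 and 1.12), HSPA5 (0.91) and XBP1 (0.59 and 0.68). In Capan-1, 6 of the 13 differed, against 11.3% of all probes, with HERPUD1 and HSPA5 called in both lines. TRIB3 (0.72), DDIT3 (0.62), HERPUD1 (0.54 and 0.58) and ASNS (0.38) were higher with sh1319, and HSPA5 was 2.02-fold lower (-1.02, adjusted p 0.000293). Of the Capan-1 differences TRIB3 and HSPA5 held under median scaling and without each single array. The ASNS difference was lost without any 1 of the 12 arrays (0.33 to 0.43), that of DDIT3 without any 1 of its 4 (0.54 to 0.70), and those of HERPUD1 without Capan-1 sh1209 replicate 1 or sh1319 replicate 2 (0.48 to 0.61 on probe 4570458) or, on probe 4610189, also sh1319 replicate 1 (0.43 to 0.73).

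Whether the response differed between the lines was tested as an interaction, the mean change of both hairpins in MIA PaCa-2 minus that in Capan-1. It passed for 6 of the 13 probes, 1 higher and 5 lower in MIA PaCa-2, where 14.4% of all tested probes passed (50.4% of those higher, 34.1% under median scaling, with 0 and 5 of the members). The response was lower in MIA PaCa-2 for TRIB3 (-1.39 ± 0.14, SE, adjusted p 4.23e-05), ATF4 (-1.02, adjusted p 0.000302, and -1.04, adjusted p 0.00116), ASNS (-0.83, adjusted p 0.0019) and DDIT4 (-0.68, adjusted p 0.0121). It was higher for HSPA5 (0.52, adjusted p 0.0404), a call lost without 10 of the 12 arrays (0.40 to 0.64) and under median scaling. The DDIT4 call was lost without MIA PaCa-2 shCtrl replicate 2 or Capan-1 shCtrl replicate 1 (-0.77 to -0.59). The interaction of PTK2 itself was -1.17 (adjusted p 0.000213), the knock down being deeper in MIA PaCa-2, and the part of that unequal knock down in these differences was not tested. No difference between the lines passed for XBP1 (0.12 and 0.03), HERPUD1 (0.16 and 0.19) or DDIT3 (-0.28, 95% interval -0.67 to 0.11). Nor did it pass on ATF4 probe 6480053 (0.01, adjusted p 0.987) or ASNS probe 5960181 (-0.68, adjusted p 0.107).

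With the control hairpin alone, DDIT4, ASNS, TRIB3 and DDIT3 were higher in MIA PaCa-2, and XBP1 and HERPUD1 in Capan-1. The lines also differed in puromycin dose, and the part of that dose was not tested. Of the 13 probes 6 were higher and 4 lower in MIA PaCa-2, where 42.1% of all tested probes differed. DDIT4 was 8.45-fold higher in MIA PaCa-2 (3.08, adjusted p 1.85e-09), ASNS higher by 1.59 (adjusted p 2.64e-07), TRIB3 2.23-fold higher (1.15, adjusted p 4.11e-06) and DDIT3 2.21-fold (1.14, adjusted p 4.57e-05). ATF4 was 1.52-fold higher on probe 7610187 (0.61, adjusted p 0.00236) and did not pass on probe 3460309 (0.22, adjusted p 0.115). XBP1 was 2.53-fold lower in MIA PaCa-2 on both probes (-1.34, adjusted p 3.53e-06 and 5.97e-06) and HERPUD1 1.44-fold and 1.49-fold lower, while HSPA5 did not pass (-0.28, adjusted p 0.0944).

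Other genes of the same pathways were counted from lists, with 1 probe per gene. Over all tested probes, 9.05% rose and 8.99% fell with sh1209 in MIA PaCa-2, and 12.2% and 12.1% with sh1319. In Capan-1 the shares were 8.14% and 8.69% with sh1209, and 6.95% and 6.77% with sh1319. Of 31 genes for amino acid synthesis and transport, tRNA charging and redox balance that ATF4 is known to raise, sh1209 in MIA PaCa-2 raised 4 and lowered 7 (median log2 change -0.11, all-probe median 0.01) and sh1319 raised 3 and lowered 14 (-0.32, all-probe median -0.01). In Capan-1, 1 and 2 rose and 3 and 3 fell, with medians of -0.04 and -0.07 that turned to 0.11 and 0.10 under median scaling. That scaling left 2, 2, 1 and 2 higher and 5, 10, 1 and 2 lower in the 4 comparisons. GPT2, an alanine aminotransferase, changed by -2.31 and -1.15 with sh1209 and sh1319 in MIA PaCa-2, and the Capan-1 values were -1.13 and -0.30, all but the last passing. CBS, the first enzyme that turns homocysteine towards cysteine, fell in all 4 (-0.94, -1.70, -0.57 and -1.10). SLC7A11, the cystine importer, went the other way and rose in MIA PaCa-2 (0.51 and 2.25) without passing in Capan-1 (0.08 and 0.18), and EPRS, a tRNA synthetase, passed only with sh1319 in MIA PaCa-2 (0.49). In the combined knockdown 3 of the 31 rose and 11 fell (median -0.10), and under median scaling 3 and 5 (median -0.01). For this list and those below, the shares of all tested probes in the combined knockdown were 12.5% risen and 12.7% fallen. With shCtrl, 23 of the 31 were higher in MIA PaCa-2 and 2 lower (median 0.79, all-probe median 0.04). Between the lines with shCtrl, 42.1% of all tested probes differed in either direction, for this list and those below.

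A second list held 14 transcription factors and secreted or death-related proteins that follow ATF4, of which 12 were tested. In MIA PaCa-2, sh1209 lowered 5 and raised 0 (median -0.41), and sh1319 raised 2 and lowered 0 (median -0.06, which was 0.05 under median scaling). In Capan-1, sh1209 raised 6 and sh1319 raised 2, with 0 lowered (medians 0.37 and 0.12). In these 4 comparisons 9.05%, 12.2%, 8.14% and 6.95% of all tested probes rose, and 8.99%, 12.1%, 8.69% and 6.77% fell. Under median scaling 0, 2, 6 and 4 were higher and 3, 0, 0 and 0 lower in the 4 comparisons. PPP1R15A, which encodes GADD34, the phosphatase subunit that reverses eIF2 phosphorylation, rose in Capan-1 (1.23 and 0.66) and had changes of -0.31 and -0.11 in MIA PaCa-2. CEBPB, a partner of ATF4, rose with sh1209 in Capan-1 (1.03), and VLDLR, a lipoprotein receptor, fell with sh1209 in MIA PaCa-2 (-1.08). The combined knockdown had 3 higher and 1 lower (median 0.10), or 5 and 0 under median scaling, and 2 in all without MIA PaCa-2 shCtrl replicate 1 or Capan-1 shCtrl replicate 1. With shCtrl, 5 were higher and 4 lower in MIA PaCa-2, or 2 and 4 under median scaling.

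Among chaperones and foldases of the ER, rises were frequent in 2 of the 4 comparisons: sh1319 for MIA PaCa-2, and sh1209 for Capan-1. Of the 16 tested of 17 on the list, sh1209 in MIA PaCa-2 raised 4 and lowered 2 (median 0.11), sh1319 raised 10 (median 0.48), and in Capan-1 sh1209 raised 9 (median 0.39) and sh1319 raised 2 (median 0.16), with 0 lowered in the last 3. In the same order, 9.05%, 12.2%, 8.14% and 6.95% of all tested probes rose, while 8.99%, 12.1%, 8.69% and 6.77% fell. The 2 rises of the last comparison lie near its share. Under median scaling the counts raised were 1, 9, 6 and 2 and those lowered 2, 0, 0 and 0. Falls then outnumbered rises in the first comparison. CALR, a chaperone of glycoproteins, changed by 0.72 and 1.08 in MIA PaCa-2, with Capan-1 values of 0.39 and 0.15, all but the last passing. SIL1, the nucleotide exchange factor of HSPA5, rose with sh1319 in MIA PaCa-2 (0.80) and with sh1209 in Capan-1 (0.95), the same pair of comparisons in which HSPA5 rose. Set directly against sh1209, sh1319 was higher for 9 and lower for 0 in MIA PaCa-2 (median 0.38) and higher for 0 and lower for 5 in Capan-1 (median -0.26). Under median scaling the MIA PaCa-2 counts became 6 and 0 and the Capan-1 counts 0 and 0 (median -0.25). The combined knockdown had 10 higher and 0 lower (median 0.29), as it did under median scaling (median 0.37). With shCtrl, 4 were higher and 6 lower in MIA PaCa-2, or 1 and 4 under median scaling.

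**Figure D4:**
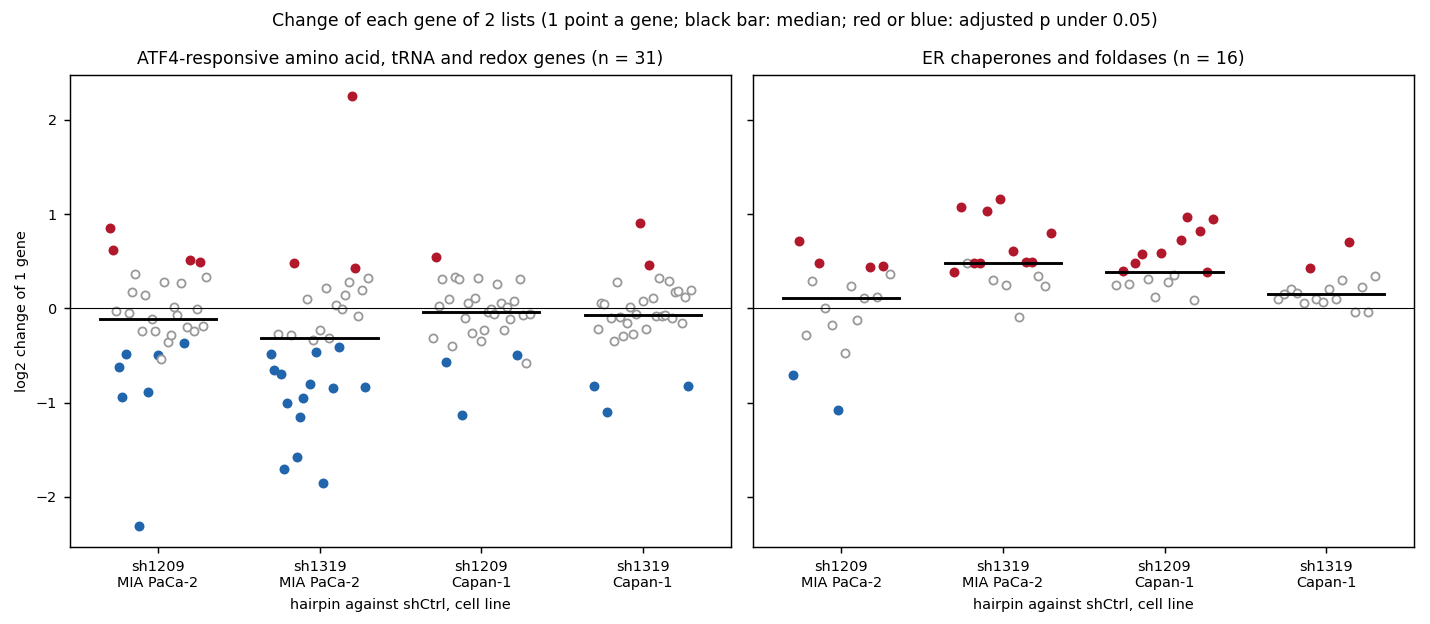
Log2 change of each tested gene against shCtrl in the 4 comparisons, for the 31 amino acid, tRNA and redox genes (left) and the 16 ER chaperones and foldases (right); each point is 1 gene, red and blue passed at an adjusted p under 0.05, and the black bar is the median. The left list has its lowest median, -0.32, with sh1319 in MIA PaCa-2, and the highest medians of the right list are 0.48, in the same comparison, and 0.39, with sh1209 in Capan-1.

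The genes of ER-associated degradation and ER transport, HERPUD1 set aside, were mixed. Of 17 tested, 3, 6, 4 and 4 rose and 2, 3, 0 and 3 fell in the 4 comparisons, taken as sh1209 and sh1319 in MIA PaCa-2 and then in Capan-1. The shares of all tested probes were 9.05%, 12.2%, 8.14% and 6.95% risen and 8.99%, 12.1%, 8.69% and 6.77% fallen. Under median scaling 0, 4, 5 and 3 rose and 2, 3, 0 and 1 fell. SEC24D, a coat protein of vesicles that leave the ER, changed by 0.73, 1.64, 0.70 and 0.99 in that order, and SEC61A1, the channel through which proteins enter the ER, by 0.38, 0.74, 0.75 and 0.95. All but the third SEC24D value passed. SEC61B, a small subunit of the same channel, fell with sh1319 in both lines (-1.69 and -0.90), and so did EDEM1, which hands misfolded glycoproteins on for degradation (-1.09 and -0.70). The combined knockdown had 6 higher and 3 lower, and 4 in all without Capan-1 shCtrl replicate 1.

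Among 13 stress sensors and eIF2 regulators, 3, 5, 2 and 2 rose and 1, 1, 1 and 2 fell in the same order, or 1, 4, 3 and 1 and 1, 0, 0 and 0 under median scaling. Of all tested probes 9.05%, 12.2%, 8.14% and 6.95% rose, and 8.99%, 12.1%, 8.69% and 6.77% fell. The counts of 1 and 2 lie near these shares. ERN1, which encodes the sensor IRE1, rose with sh1209 in both lines (0.62 and 1.16) and had changes of 0.01 and 0.36 with sh1319. ATF6 fell with sh1209 in MIA PaCa-2 (-0.78) and with both hairpins in Capan-1 (-0.42 and -0.57), and rose slightly with sh1319 in MIA PaCa-2 (0.35, adjusted p 0.0498). NCK1, an adaptor that holds a phosphatase at eIF2, rose in all but the first comparison (0.12, 0.47, 0.79 and 0.82). The combined knockdown had 4 higher and 1 lower.

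To see which other genes moved like the members, the 4 changes of each of 19089 genes were set against those of TRIB3 and of HSPA5 by root mean square difference. Nearest to TRIB3 were SULT1A2 (difference 0.09), RAPH1 (0.18) and SULF2 (0.19). SULF2, an enzyme that trims sulfate from heparan sulfate, changed by -0.94 and -1.06 in MIA PaCa-2, with 0.02 and 0.90 for Capan-1. Nearest to HSPA5 were DNASE2 (0.13), FAM107B (0.17) and ATG7 (0.19), of which ATG7, needed to form autophagosomes, changed by 0.21 and 0.82 in MIA PaCa-2, with 0.44 and -0.19 for Capan-1. The 4 changes share controls within a line, so the likeness is a description over 4 values.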

How the data were processed

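Total RNA (500 ng a sample) was hybridised to Illumina Human HT-12 v4 arrays, 12 on 1 slide. The authors deposited 1 non-normalized table from GenomeStudio 2011.1 (per the labels' processing notes) giving, per array, a probe's intensity and its detection p-value, and the deposited intensity values are not log-transformed. It held 47320 rows, of which 92 were spike-in controls, and its 28 unnamed columns were empty. Groups came from the sample titles, and the label shFAK1319 in Capan-1 was read as sh1319. Intensities were corrected for background by normexp on the detection p-values with an offset of 16, quantile normalized and taken to log2 (limma 3.58.1 in R 4.3.3). Probes with a detection p-value under 0.05 on at least 2 of 12 arrays, 24207, were fitted with lmFit and eBayes on 6 group means (residual degrees of freedom: 6), with Benjamini-Hochberg adjustment over all of them. The offset shrinks the folds of dim probes, and the number of arrays limits the precision. The model fit was first checked on simulated normalized log2 values with independent noise, where 200 probes were changed by 1. It recovered 95.5% of them for sh1319 in MIA PaCa-2, 100% for the combined knockdown and 81.5% for the interaction. False calls were 4.02%, 5.66% and 3.55% of all calls. Background correction, normalization and error shared between arrays were not covered by this check.

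The members and lists were chosen with earlier results of these data known. Lists hold genes of amino acid, tRNA and redox metabolism, ATF4-dependent factors and secreted proteins, ER chaperones, ER-associated degradation, stress sensors, heat shock, hypoxia and p53, read by the brightest probe of each gene and under the file's own symbols (MANF as ARMET, VIMP as SELS, KDM3A as JMJD1A). ERO1L, GDF15 and BBC3 each stand in 2 lists. Named are every member, PTK2, the 2 largest rises and 2 largest falls of each list past the threshold in the combined knockdown, and the 3 genes nearest TRIB3 and HSPA5. Alternatives were other background, scaling and filter settings, a replicate block, 1 line alone, averaged replicates, the brightest probe only, the methods' t-test, and each array left out, where a lone array is assumed to vary like the other groups. Motifs were searched in RefSeq promoter windows with Python 3.11.15.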

Additional observations from a re-analysis of the deposited data

Results flagged for a closer look

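The responses of 6 member probes to FAK knock down differed between the lines in the interaction test (mean change of both hairpins in MIA PaCa-2 minus that in Capan-1, limma, adjusted p under 0.05). For TRIB3 the difference was -1.39, and the sh1319 changes had opposite signs, -1.03 for MIA PaCa-2 against 0.63 for Capan-1. For ATF4 it was -1.02 on probe 3460309 and -1.04 on probe 7610187, with falls in both MIA PaCa-2 comparisons and no call among those of Capan-1. The third ATF4 probe, 6480053, had 0.01 without passing (adjusted p 0.987). For ASNS, on probe 1510296, it was -0.83, and its second probe had -0.68 without passing (adjusted p 0.107). For DDIT4 it was -0.68 (-0.77 to -0.59 over left-out arrays), although the 2 hairpins differed from each other by 1.85 in MIA PaCa-2, so that the mean stands for neither. For HSPA5 it was 0.52, where the sh1319 changes were 1.06 for MIA PaCa-2 against -0.42 for Capan-1 and the sh1209 changes 0.15 and 0.60. The HSPA5 difference did not pass under median scaling (0.43, adjusted p 0.346) and ran from 0.40 to 0.64 over left-out arrays. Nor did its sh1319 fall in Capan-1 pass under that scaling (-0.16, adjusted p 0.71). PTK2 fell less in Capan-1 (interaction -1.17), and the part of this in the 6 differences was not tested.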

How the results depend on the processing

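No change of a tested member probe, or of PTK2 probe 450253, turned its sign under an alternative while passing in either setting. Single genes of the lists were not followed across the settings, and the total counts below carry no direction. Of the 13 member probes, median scaling called 2 with sh1209 in Capan-1 (main 4), 3 with sh1319 there (6), 7 in the combined knockdown (11) and 2 between the hairpins in Capan-1 (6), and it called 8 amino acid genes (14), 2 heat shock genes (6) and 2 hypoxia genes (5), with PTK2 at -0.46 for sh1209 in Capan-1. Without background correction 7 genes of the second ATF4 list (4) and 5 p53 genes (3) passed, and without the filter 3 hypoxia genes. The brightest probe alone gave 4 with sh1209 in MIA PaCa-2 (7), 2 with sh1209 in Capan-1 and 6 between the control lines (10), since fewer probes were counted. Over left-out arrays the counts ran from 1 to 4 for sh1209 in Capan-1, 3 to 5 for sh1319 in Capan-1, 2 to 5 between the hairpins there, 2 to 5 for the second ATF4 list, 4 to 9 for ER-associated degradation, 2 to 6 for heat shock and 1 to 4 for hypoxia. Averaging replicates first, with additive terms for line and hairpin, left 2 residual degrees of freedom. The error of that fit is the disagreement of hairpin changes between the lines, not the spread between arrays. There limma called 0 members in the combined knockdown, 0 genes of each of the 8 lists and 0 of all probes (2133 and 4 members at an unadjusted p under 0.05). The methods' t-test, after Benjamini-Hochberg, called 0 members in the 4 comparisons with shCtrl and in both hairpin comparisons (7, 10, 4, 6, 7 and 6 unadjusted) and 7 between the lines (11 unadjusted), and PTK2 at -2.24, -2.48, -0.61 and -1.78 did not pass (adjusted p 0.0999, 0.0592, 0.185 and 0.153).

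Same-numbered arrays shared little deviation after normalization (15 correlations of same-numbered deviations, -0.0611 to 0.16). Median raw intensity was higher in replicate 2 than in replicate 1 of every group, and a shared preparation or slide position was not tested. A replicate block called 11 members in the combined knockdown, 5 with sh1319 in Capan-1 and 5 in the interaction, within 1.5 times of the counts without it, and made 5998 calls over all probes in the combined knockdown, against 6092 without it. The cause of the changes above was not tested beyond the fewer probes, the degrees of freedom and the error term named. Signal over background limits CHAC1, SESN2 and ATF4 probe 6480053.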

Other observations

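Genes of 3 neighbouring stress programmes were counted in the same way, with sh1209 and sh1319 in MIA PaCa-2 and then in Capan-1. Of all tested probes 9.05%, 12.2%, 8.14% and 6.95% rose and 8.99%, 12.1%, 8.69% and 6.77% fell in these comparisons, which for lists of 10 to 12 genes is about 1 gene in each direction, and most of the counts of 0 to 2 lie near it. Of 10 tested of 12 hypoxia genes, 1, 3, 5 and 1 rose and 4, 1, 0 and 1 fell, and in the combined knockdown 2 rose and 3 fell (1, 3, 5 and 1, and 2, 1, 0 and 0, under median scaling). ADM, which encodes the vasodilator peptide adrenomedullin, rose in all 4 (2.28, 2.77, 0.90 and 0.73). BNIP3L, a mitophagy receptor, fell with sh1209 in MIA PaCa-2 (-1.78) and rose with sh1209 in Capan-1 (0.84), and NDRG1 did likewise (-0.49 and 1.43). DDIT4, which is also hypoxia-responsive, fell in the first of these and had -0.05 in the second. JMJD1A, a histone demethylase, fell with sh1319 in MIA PaCa-2 (-1.16). Left-out arrays took the combined count from 5 down to 1, without MIA PaCa-2 shCtrl replicate 2.

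Of 12 heat shock genes, 3, 2, 0 and 1 rose and 0, 3, 3 and 1 fell, with 2 and 4 in the combined knockdown (2 in all without either Capan-1 shCtrl array). Under median scaling 1, 2, 0 and 1 rose and 0, 1, 0 and 0 fell. DNAJB1, a cochaperone of HSP70, had 0.65, 1.24, 0.43 and 0.63, of which all but the third passed, and BAG3, which ties HSP70 to autophagy, rose in MIA PaCa-2 (0.49 and 0.43). HSF1, the heat shock transcription factor, passed with sh1319 in MIA PaCa-2 (-0.56) and HSPE1, a mitochondrial chaperonin, with sh1209 in Capan-1 (-0.54). Of 11 tested of 12 p53 genes, 1, 2, 3 and 0 rose and 3, 0, 1 and 0 fell, with 2 and 1 in the combined knockdown, and under median scaling 1, 2, 3 and 0 rose and 1, 0, 0 and 0 fell. BTG2, an antiproliferative gene, rose in all but the last (0.93, 0.56, 0.81 and 0.02), FAS, the death receptor, rose with sh1319 in MIA PaCa-2 alone (2.12), and RRM2B, a ribonucleotide reductase subunit, fell with sh1209 in both lines (-0.61 and -0.57).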
